A study of Homo sapiens with 6 samples.

Results

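Peaks of N6-methyladenosine (m6A) that lie on non-coding RNA alone were taken from the peak lists of a study of YTHDF2 (DF2) in U2OS, an osteosarcoma cell line of human origin. A member was any peak that the authors' annotation gives as exactly ncRNA, with no coding or mRNA part. There were 1000 members among 13147 peaks with DF2 siRNA 1, 1416 among 13310 peaks with DF2 siRNA 2 and 1923 among 15272 peaks with control siRNA, or 4339 of 41729 peaks in all. They lay on 1702 gene IDs. The cells were labelled WT and had received DF2 siRNA #1, DF2 siRNA #2 or control siRNA, with dose and time after transfection not stated in the labels. For each of these 3 conditions the labels give 1 input and 1 m6A-IP library, made from cytoplasmic RNA broken into pieces of about 100 nt, with an anti-m6A antibody for the IP. The authors deposited 1 peak list per condition, so no value below has a replicate, an SD or a test. The intervals are exact 95% binomial intervals over peaks or genes and cover counting error only. The lists hold no RNA level, so neither the knock-down of YTHDF2 nor the labelled cell type (epithelia cells) could be checked in them.

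m6A is written onto RNA by a complex around METTL3 and METTL14, mostly at short motifs with the core GGACU, and YTHDF2 is a cytoplasmic reader that brings marked RNAs to the deadenylation machinery. Many long non-coding RNAs (lncRNAs), though not all, are spliced and polyadenylated much like mRNAs. LncRNAs encode no protein known to be needed for their role, and several lncRNAs, such as MALAT1, carry well-studied m6A sites. A gene with the suffix AS was named as antisense to the gene whose name it carries. RefSeq gives some of these genes another suffix, such as RAB30-DT for RAB30-AS1. LINC names mark lncRNAs that stand between other genes, SNHG names mark host transcripts of small nucleolar RNAs, and a clone name such as RP11-284F21.10 marks a transcript known by the clone it was found in.

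The letters at the start of some of these RNAs can be shown, because the first 50 bases of the gene are in a RefSeq table (GRCh38.p14) and lie wholly inside a member in all 3 lists. This held for 23 genes. The m6A core motif, written GGACT in DNA letters, was in the first 50 bases of 5 of these 23 genes (21.7%), and its reverse complement AGTCC in 0 of 23. Over all 35116 entries of the RefSeq table the shares of such windows were 4.90% and 4.91%, and over its 12917 lncRNA entries 4.95% and 4.53%. The windows inside a member of DF2 siRNA 1, DF2 siRNA 2 or control held GGACT in 6 of 39, 7 of 52 and 8 of 77 genes. They held AGTCC in 0 of 39, 2 of 52 and 4 of 77. Each of these sets includes the 23 genes, so the counts are not independent. The 5 genes with GGACT among the 23 had mean score percentiles from 20.1 to 35.0 over the 3 lists. A match describes letters and is not a mapped m6A site. The windows with GGACT are shown first, with the motif in capitals, followed by those of the 3 genes with the highest mean score percentile in that set, which hold none; all run 5′ to 3′ on the strand of the gene.
RAB30-AS1 (RAB30-DT in RefSeq), chr11:83072066-83072115, plus strand: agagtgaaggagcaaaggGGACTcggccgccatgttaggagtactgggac
DGCR11, chr22:19048326-19048375, minus strand: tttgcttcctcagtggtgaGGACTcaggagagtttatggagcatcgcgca
RFPL1S, chr22:29442080-29442129, minus strand: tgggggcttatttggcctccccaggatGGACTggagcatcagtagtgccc
EPHA5-AS1, chr4:65669961-65670010, plus strand: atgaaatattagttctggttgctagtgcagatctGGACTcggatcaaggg
DKFZP434I0714 (MIR4453HG in RefSeq), chr4:152536264-152536313, plus strand: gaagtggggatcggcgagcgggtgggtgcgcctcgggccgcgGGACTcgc
LINC00657 (NORAD in RefSeq), chr20:36050911-36050960, minus strand: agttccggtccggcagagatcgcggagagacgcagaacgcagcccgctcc
LINC00473, chr6:165987990-165988039, minus strand: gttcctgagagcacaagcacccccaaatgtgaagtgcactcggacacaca
PP7080 (SLC9A3-OT1 in RefSeq), chr5:472916-472965, minus strand: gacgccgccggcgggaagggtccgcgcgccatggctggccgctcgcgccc

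The members made up 7.61% of the peaks with DF2 siRNA 1 (interval 7.16 to 8.07), 10.6% with DF2 siRNA 2 (10.1 to 11.2) and 12.6% with control siRNA (12.1 to 13.1). The intervals do not overlap, but they cover counting error only and not the spread between cultures. The covered sequence of the same peaks, which grows with their number, was 0.591 Mb, 0.921 Mb and 1.28 Mb. The members lay on 785 genes with DF2 siRNA 1, 1111 with DF2 siRNA 2 and 1494 with control. Most genes carried a single member, namely 80.1%, 79.3% and 78.7% of genes in the same order. The order of DF2 siRNA 2 and control was not the same under every setting. Among the 13147 peaks of highest score in each list, which leaves out low scores mainly from the longer control list, members were 7.61% with DF2 siRNA 1, 10.3% with DF2 siRNA 2 (9.83 to 10.9) and 10.03% with control (9.52 to 10.6). With an FDR under 0.01 they were 6.88%, 10.3% and 12.1%. In the upper 50% of each list by score they were 2.21%, 2.18% and 2.87%, and in the upper 50% by fold enrichment 3.44%, 5.68% and 8.43%. The number of peaks called also depends on the depth of each library, which is unknown here, so its part in these counts was not tested.

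Each peak has a score, a whole number that neither labels nor headers define. Over all peaks its median was 33 with DF2 siRNA 1, 99 with DF2 siRNA 2 and 158 with control, so a peak was ranked only within its own list, where the score percentile runs up to 100 for the highest score. Members sat low in that ranking. Their median percentile was 16.3 with DF2 siRNA 1, 17.9 with DF2 siRNA 2 and 22.1 with control, against 52.8, 54.5 and 55.3 for the other peaks of the same lists. Of the members, 85.7%, 89.8% and 88.7% lay in the lower 50% of their list. In the top 10% of a list there were 21 members with DF2 siRNA 1 (2.1%, against 9.99% of all its peaks), 13 with DF2 siRNA 2 (0.918%, against 10% of all its peaks) and 16 with control (0.832%, against 10%).

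The distance from the other peaks was smaller by the authors' other measures. The fold enrichment differed in scale between lists as well. Its highest value over all peaks was 656 with DF2 siRNA 1, 350 with DF2 siRNA 2 and 233 with control, so folds are read within a list. Ranked by fold enrichment over input, the members' median percentile was 20.9 with DF2 siRNA 1, 24.8 with DF2 siRNA 2 and 31.8 with control. Ranked by −log10 FDR it was 35.8, 42.5 and 43.6. An FDR under 0.01 was reached by 74.8% of members with DF2 siRNA 1, 80.3% with DF2 siRNA 2 and 78.0% with control, against 82.7%, 82.7% and 81.2% of all peaks. The quotient of score and fold enrichment, on which the order by score rests in part, was lower for members, with medians of 1.14, 1.49 and 1.84 against 1.95, 4.37 and 6.75 over all peaks.

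**Figure D1:**
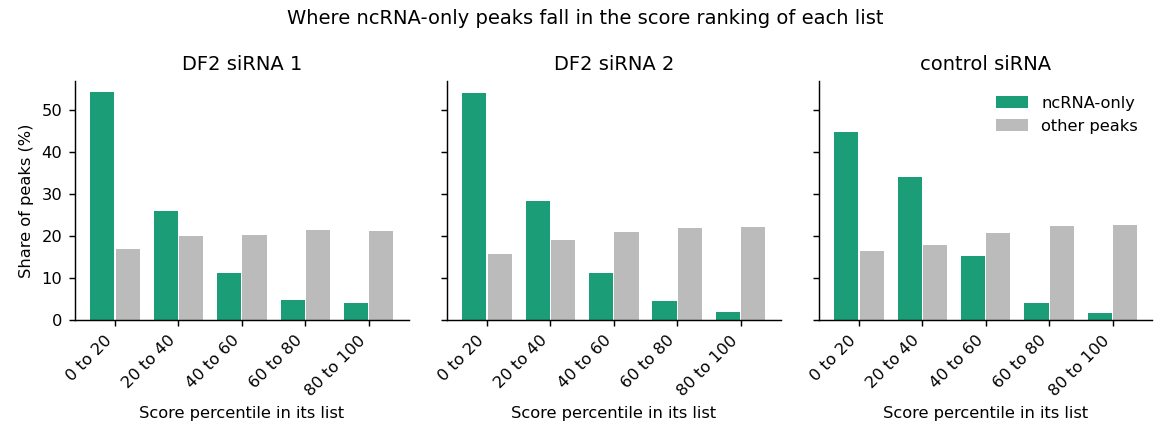
Share of ncRNA-only peaks (green) and of other peaks (grey), in percent, in each band of 20 score percentiles of their own list, 1 panel per list. In each list the green bars are tallest in the lowest band and fall towards the highest. The grey bars are shortest in the lowest band and differ less between bands.

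Members were less often wide than other peaks and more often unbroken. The median covered width was 494.5 bases with DF2 siRNA 1, 600 with DF2 siRNA 2 and 592 with control, against 600 for the other peaks of every list. The median genomic span, introns included, was 600, 746 and 800 bases, against 800, 1000 and 1037 for the other peaks. A single unbroken stretch, with no intron inside, made up 69.3%, 65.5% and 61.3% of members, against 58.6%, 56.9% and 53.8% of other peaks. Wide peaks were fewer: 8.5%, 13.4% and 15.5% of members covered more than 1000 bases, against 15.4%, 19% and 22.1% of other peaks. Most widths were multiples of 200 bases (81.7%, 77.4% and 69.4% of members), so a width is a number of bins rather than the extent of a site.

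By the kind of gene symbol, clone names were the most common. They made up 48.9% of members with DF2 siRNA 1, 53.0% with DF2 siRNA 2 and 54.8% with control. Antisense names followed with 21.1%, 19.6% and 18.9%, and LINC names with 8.6%, 7.27% and 6.76%. Other names, among them MALAT1, TUG1 and many pseudogenes, made up 20.1%, 19% and 18.1%. The share of clone names was lower with DF2 siRNA 1 (45.8 to 52.0) than with control (52.6 to 57.1), and the intervals of the antisense and LINC shares overlapped among all lists. In the upper 50% of each list by score, clone names were 40.7%, 39.3% and 40.2%, other names 28.3%, 24.1% and 23.3%, and LINC names 11.0% (6.44 to 17.3), 13.8% (8.63 to 20.5) and 10.5% (6.77 to 15.3). The LINC intervals overlap those over all members, which run from 6.94 to 10.5, 5.98 to 8.75 and 5.68 to 7.98.

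**Figure D2:**
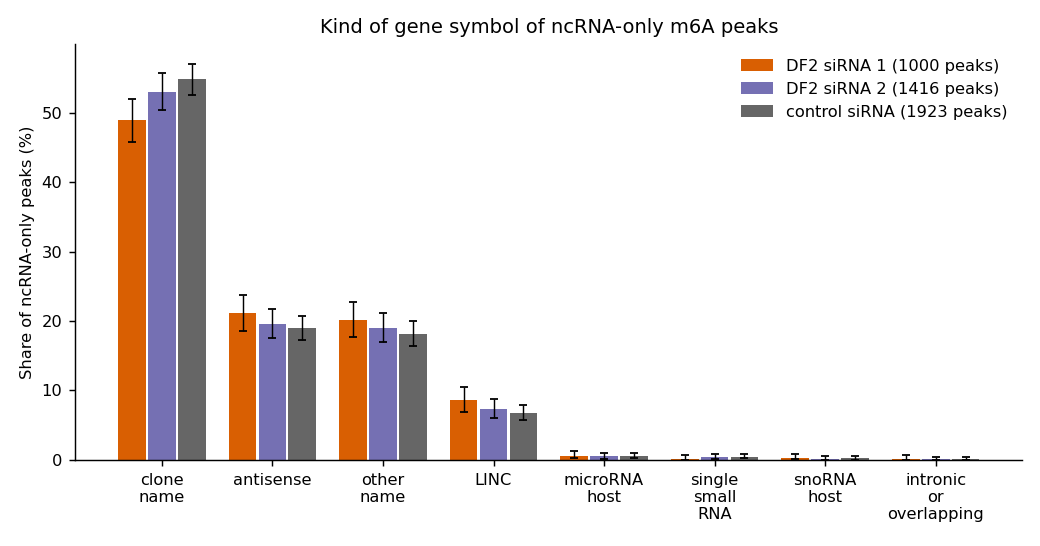
Share of ncRNA-only peaks with each kind of gene symbol, in percent, for DF2 siRNA 1 (orange, 1000 peaks), DF2 siRNA 2 (violet, 1416 peaks) and control siRNA (grey, 1923 peaks), with exact 95% binomial intervals. Clone names are the tallest bars in every list, and the bars of the last 4 kinds stay below 1% in every list.

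The rarer kinds held few members. Hosts of small nucleolar RNAs by symbol had 3 peaks with DF2 siRNA 1, 2 with DF2 siRNA 2 and 4 with control, hosts of microRNAs 6, 7 and 10, single small RNAs 2, 6 and 9, and intronic or overlapping names (IT or OT) 2, 1 and 3. The IT names were TTLL11-IT1, with a shared stretch on chromosome 9 in all 3 lists, and CRHR1-IT1, whose peak with DF2 siRNA 1 shared no base with its 2 control peaks.

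Through RefSeq names, 662 of the 1702 gene IDs could be given a class, 564 by the current symbol and 98 by an older one. Only 5 of the 998 clone-named IDs matched, so the class describes the named genes. Of the members that matched, 69.1% with DF2 siRNA 1, 67.3% with DF2 siRNA 2 and 67.3% with control lay on a lncRNA or antisense RNA, and 25.9%, 28.6% and 28.5% on a pseudogene. The median score percentile of the lncRNA group was 19.7, 22.1 and 26.0, and that of the pseudogene group 13.9, 16.0 and 21.6, so both groups lay in the lower ranks of every list. By this matching, 26 symbols of members led to a protein-coding gene in RefSeq, with 19, 20 and 27 peaks. They include TUG1, SLC39A8, a zinc and manganese transporter, and KANTR. Some led there only as an older name of a gene with another symbol, such as TNRC6C-AS1 for TMC6, TTLL11-IT1 for TTLL11 and C2orf48 for RRM2. For pseudogenes, reads of the parent mRNA can fall on the copy, and neither labels nor headers say how the authors placed such reads. Among members on RefSeq pseudogenes with a parent that could be read from the symbol, the parent itself had a peak in 39 of 65 genes with DF2 siRNA 1 (60%, interval 47.1 to 72.0), 42 of 94 with DF2 siRNA 2 (44.7%, 34.4 to 55.3) and 58 of 135 with control (43.0%, 34.5 to 51.8). Over all RefSeq coding genes, expressed in these cells or not, the shares were 36.8%, 36.0% and 39.0%. They lay below the interval of DF2 siRNA 1 and inside those of DF2 siRNA 2 and control.

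MALAT1, an abundant lncRNA of nuclear speckles, had the highest member score with DF2 siRNA 1 and with control. Its peak at chr11:65499962-65500761 (hg38) had the same bounds in the 3 lists. The score was 2028 with DF2 siRNA 1, 3417 with DF2 siRNA 2 and 15978 with control, at percentiles 99.8, 99.4 and 99.97 of their lists. The fold enrichment was 68.8, 36.2 and 38.1, at fold percentiles 92.7, 75.9 and 77.2. A further MALAT1 peak, chr11:65498962-65499361, was in the control list alone, at score percentile 97.8 and a fold enrichment of 16.8. NEAT1, the scaffold RNA of nuclear paraspeckles, had a peak at percentile 85.0 with DF2 siRNA 1 and 95.7 with control that shared bases, and none with DF2 siRNA 2. Both RNAs are known from the nucleus, while the labels name cytoplasmic RNA.

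NORAD, named LINC00657 in the files, is a cytoplasmic lncRNA that binds PUMILIO proteins and guards genome stability. Its peak chr20:36049761-36050960 covers the gene start printed above and had the same bounds in every list. The fold enrichment was 138.8 with DF2 siRNA 1, 118.2 with DF2 siRNA 2 and 59.1 with control, at fold percentiles 98.6, 98.7 and 91.9. Its score stood at percentiles 99.1, 99.8 and 98.8. LINC00473, a lncRNA induced by cAMP signalling, had a pair of high peaks in each list. The higher one, chr6:165908802-165948234 over 2176 bases, lay at percentiles 97.9 with DF2 siRNA 1, 98.7 with DF2 siRNA 2 and 99.3 with control. The other one reaches the gene start and lay at 95.2, 97.3 and 96.6. PP7080 (SLC9A3-OT1), which overlaps a sodium-proton exchanger gene, lay at 96.1, 97.4 and 93.9.

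TUG1, a widely expressed lncRNA first described in the developing mouse retina, carried 5 members with DF2 siRNA 1, 4 with DF2 siRNA 2 and 3 with control. The peak chr22:30970677-30972144 had the same bounds in all lists, with scores of 263, 772 and 1928 at percentiles 92.2, 90.9 and 94.2. Downstream, a control peak of 2993 covered bases (chr22:30976403-30979395) spanned the place of 3 separate peaks with DF2 siRNA 1 and of 2 with DF2 siRNA 2. The larger number of TUG1 peaks with DF2 siRNA 1 thus came with pieces of a stretch that the control list holds as 1 peak.

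Among antisense names, FGD5-AS1 led the lists, at percentiles 96.7 with DF2 siRNA 1, 98.0 with DF2 siRNA 2 and 99.6 with control. ENTPD1-AS1 had percentiles of 91.2, 88.1 and 92.1, AGAP2-AS1 of 90.6, 91.7 and 89.4, WAC-AS1 of 91.2, 83.9 and 77.1, and THAP9-AS1 of 82.3, 88.8 and 95.2. Each of these 5 genes had its highest peak at a shared place in the 3 lists. The fold enrichment of WAC-AS1 was among the highest of the named genes, at 163.5, 155.0 and 88.8. Of the clone names, RP11-284F21.10 on chromosome 1 had percentiles of 97.5, 98.1 and 92.2 and the highest fold enrichment of any member with DF2 siRNA 1, at 228.2, with 192.1 with DF2 siRNA 2 and 102.5 with control. RNF216P1, a transcribed pseudogene, lay at 94.1, 95.6 and 90.4.

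Some RNAs ranked high with DF2 siRNA 1 and had no overlapping peak elsewhere. Of the 21 members in the top 10% of that list, 13 were found in both other lists and 7 in neither. With DF2 siRNA 2 it was 13 of 13 in both, and with control 14 of 16 in both and 1 in neither, the further MALAT1 peak. Of members at any rank, 79.6%, 53.7% and 38.3% were found in both other lists, against 75.9%, 73.2% and 62.8% of all peaks. Of all peaks in the top 10% of their lists, 95.4%, 98.9% and 97.6% were found in both other lists. The 7 peaks of DF2 siRNA 1 lay on MTATP6P1 and MTND2P28, nuclear copies of mitochondrial genes on chromosome 1, on RP5-857K21.6 beside them, on RPPH1, the RNA of ribonuclease P, with RNaseP_nuc at the same place, and on RN7SL1, the RNA of the signal recognition particle, with an unnamed gene at the same place. They thus stand for 5 places. Their percentiles ran from 95.8 to 99.8, while the −log10 FDR of RN7SL1 was 2.20 and that of RP5-857K21.6 was 2.12. The latter gene also had a control peak, chr1:631674-631873, at percentile 28.9. That peak begins at the base after the end of the DF2 siRNA 1 peak, so no base is shared. For 6 of the 7 the quotient of score and fold was within 1% of 29.5, the highest value of any peak in that list, as it was for MALAT1 and CH507-513H4.3 there. Reads of the mitochondrial genes and of near-identical copies of RN7SL1 can be assigned to either copy, so these names are uncertain.

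**Figure D3:**
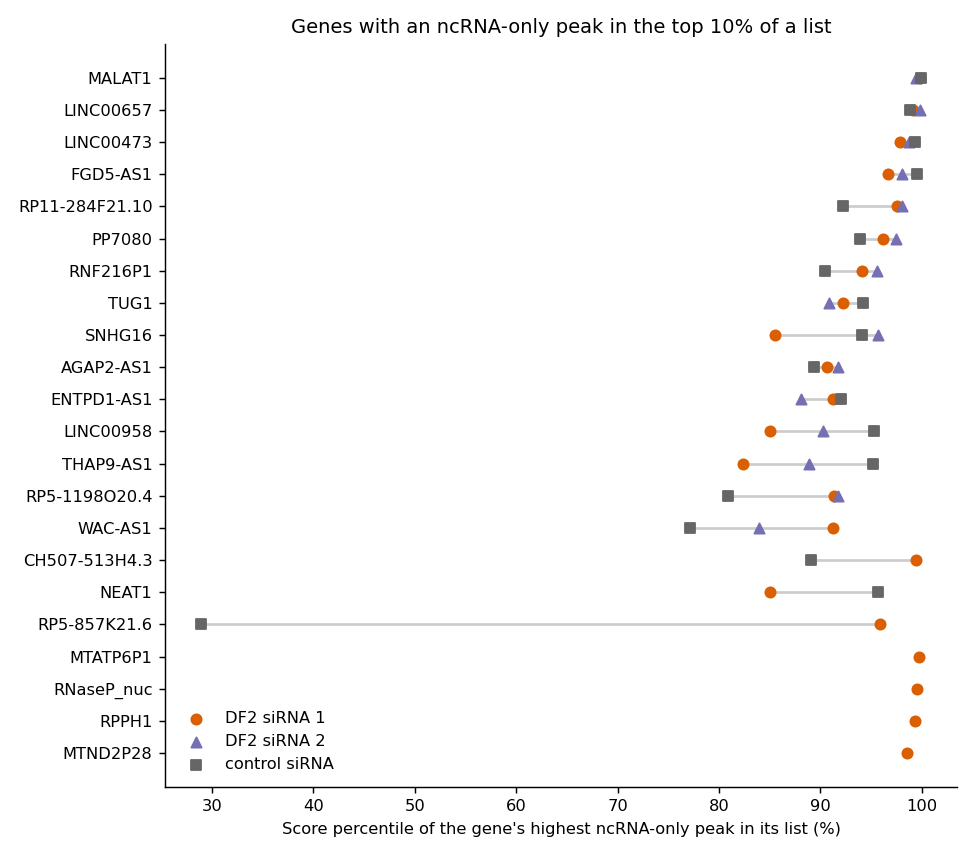
Score percentile, within its list, of the highest ncRNA-only peak of each gene picked by the naming rule that reached the top 10% of a list, for DF2 siRNA 1 (circles), DF2 siRNA 2 (triangles) and control siRNA (squares). RN7SL1, the unnamed gene at its place and EBLN3 (percentile 92.0 with control) also reached the top 10% but are outside the rule and not drawn. A missing mark means no ncRNA-only peak, as for the 4 genes at the bottom, which have only a circle.

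Few hosts of small nucleolar RNAs could be described. Of 37 symbols in the list, all of them a current or older RefSeq name, 3 had a member with DF2 siRNA 1 (SNHG7, SNHG15 and SNHG16), 2 with DF2 siRNA 2 (SNHG7 and SNHG16) and 3 with control (SNHG7, SNHG16 and DANCR). SNHG16 stood high, at percentiles 85.5, 95.7 and 94.1 for a peak with the same bounds (chr17:76561620-76563586). SNHG7 stood at 0.799, 8.15 and 6.91. GAS5 and ZFAS1, well-known members of the group, had no peak of any annotation under these symbols in the 3 lists. Of 54 well-studied lncRNAs, 22 had a member with DF2 siRNA 1, 17 with DF2 siRNA 2 and 23 with control. For scale, of 18330 RefSeq lncRNA entries, expressed in these cells or not, 1.27%, 1.58% and 1.99% had a member in the same lists. Only members matched by symbol could count there, and 1039 of the 1702 gene IDs were not matched. These shares are therefore lower bounds, while all 54 symbols of the list are RefSeq names. The list was also chosen with earlier results of these data known, so no enrichment can be read from it. OIP5-AS1 had 3 members with DF2 siRNA 1, 1 with DF2 siRNA 2 and 3 with control, and HOTAIR, transcribed from the HOXC cluster, had 1, 0 and 1. JPX had 0, 1 and 3. H19, MEG3, KCNQ1OT1, TERC and RMRP had no peak under these symbols in any list.

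Hosts of microRNAs had a median score percentile of 23.5 with DF2 siRNA 1, 21.7 with DF2 siRNA 2 and 24.1 with control, and none reached the top 10% of a list. By the highest peak of each gene, MIR4458HG lay at percentiles 26.2 with DF2 siRNA 1, 41.2 with DF2 siRNA 2 and 56.5 with control, and MIR22HG at 40.9, 37.4 and 48.2. In the same order MIR210HG lay at 35.9, 35.7 and 28.6, MIR4435-1HG at 16.3, 21.7 and 38.5, and MIR762HG at 20.8, 16.0 and 24.5. The single small RNAs were 11 symbols, of which 10 had a microRNA hairpin in RefSeq. Their peaks were 60 to 110 bases wide and took up the whole annotated hairpin, so no finer place within it can be read. MIR4292 and MIR7161 had a peak in all 3 lists, and MIR589 and MIR6720 with DF2 siRNA 2 and control. GGACU was in 0 of the 10 hairpins, against 8.83% of 1562 hairpins in the RefSeq table. MIR4292 had percentiles of 8.67, 9.57 and 27.3, and MIR7161 of 8.67, 17.0 and 31.3. The mature microRNAs of the 2 hairpins found in every list are given from RefSeq (GRCh38.p14), with the seed, bases 2 to 8, in capitals. Their seeds differ.
hsa-miR-4292, chr9:136830996-136831013: cCCCUGGGccggccuugg
hsa-miR-7161-5p, chr6:158609707-158609729: uAAAGACUguagaggcaacuggu
hsa-miR-7161-3p, chr6:158609763-158609790: uAGAUCUUugacucuggcagucuccagg

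A peak counted as found in another list if at least 1 base of its blocks was shared with a peak there on the same strand. Members with DF2 siRNA 1 were found at 84.5% in DF2 siRNA 2 and 86.6% in control, against 83.6% and 81.5% of all peaks of that list. Members with DF2 siRNA 2 were found at 56.8% in DF2 siRNA 1 and 84.3% in control, against 80.5% and 86.1% of all peaks. Control members were found at 41.7% in DF2 siRNA 1 and 59.3% in DF2 siRNA 2, against 67.1% and 73.4% of all peaks. In neither other list were 8.5% of members with DF2 siRNA 1 (10.8% of all peaks), 12.6% with DF2 siRNA 2 (6.51%) and 37.3% with control (22.3%). Nearly all partners were members themselves, as with 839 of the 845 peaks of DF2 siRNA 1 found in DF2 siRNA 2 and 1136 of the 1141 control peaks found there. The lists enter more than 1 of these pairs, so the shares are not independent.

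These shares moved with the score. In the lowest 20% of the control list by score, 9.90% of members were found in DF2 siRNA 1 and 29.8% in DF2 siRNA 2, against 15.9% and 30.8% of the other peaks. In the middle band, from percentile 40 to 60, it was 90.2% and 97.3%, against 77.2% and 81.3% of the other peaks. In the same band of DF2 siRNA 2, 94.3% of members were found in DF2 siRNA 1 and 97.5% in control, against 93.2% and 85.9%. Over the 30 comparisons by bands of 20 percentiles, the interval of the members lay above that of the other peaks in 13 and below it in 3, namely the lowest band of control against DF2 siRNA 1 and the highest band of DF2 siRNA 1 against each other list. In that highest band 75% of 40 members were found in DF2 siRNA 2 and 80% in control, against 96.3% and 94.9% of other peaks. It holds the 7 peaks named above.

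**Figure D4:**
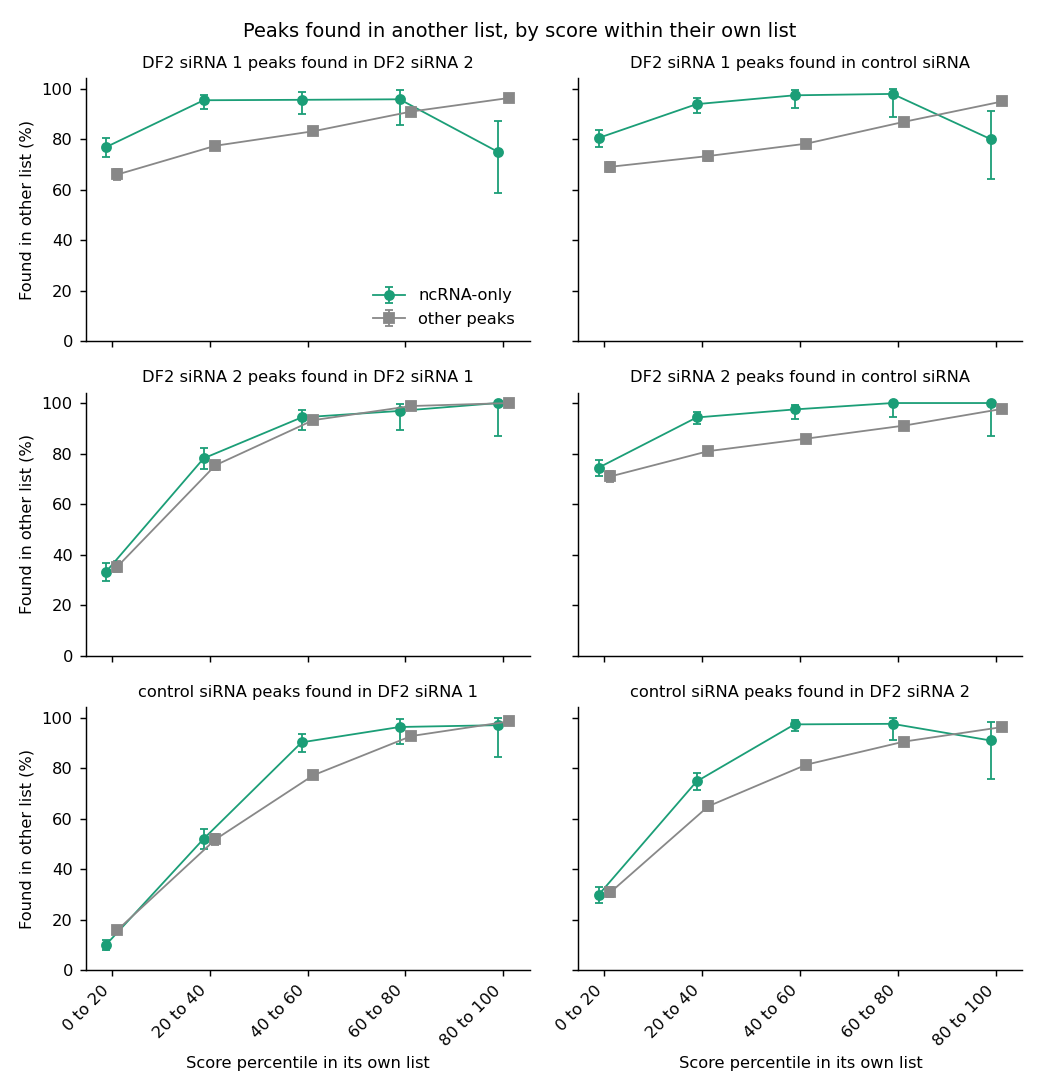
Share of ncRNA-only peaks (green circles) and of other peaks (grey squares) found in another list, in percent, by bands of 20 score percentiles in their own list, with exact 95% binomial intervals. Green lies at or above grey or close to it in most bands, and in the upper row it drops in the highest band, to 75% and 80%.

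By kind, antisense names were found most often among the larger kinds when DF2 siRNA 1 or DF2 siRNA 2 was set against control, at 90.05% of 211 and 88.8% of 277 peaks, with 87.3% of 489 and 84.8% of 751 for clone names and overlapping intervals. Control members were found in DF2 siRNA 2 at 64.0% for antisense names, 57.7% for LINC names and 58.4% for clone names, with overlapping intervals. In DF2 siRNA 1 they were found at 47.5%, 51.5% and 38.1%. The median score percentile of the control peaks was 25.5, 26.7 and 21.0 in the same order, so the kinds also differ in rank.

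By gene, 631 of the 1702 gene IDs (37.1%) had a member in all 3 lists, against 65.3% of all genes with a peak of any annotation. Control alone held 471 genes (27.7%, against 12.1% of all genes), and DF2 siRNA 2 with control held 330 (19.4%, against 7.59%). DF2 siRNA 1 alone held 58 (3.41%, against 5.03%), DF2 siRNA 2 alone 116 (6.82%, against 2.84%), DF2 siRNA 1 with control 62 (3.64%, against 3.63%) and both DF2 siRNA lists without control 34 (2.00%, against 3.56%). With the 13147 peaks of highest score from every list, control alone held 179 genes, DF2 siRNA 2 alone 160 and all lists 614. The genes in all lists had higher ranks, with medians of the best percentile of 24.6 with DF2 siRNA 1, 31.9 with DF2 siRNA 2 and 41.4 with control.

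**Figure D5:**
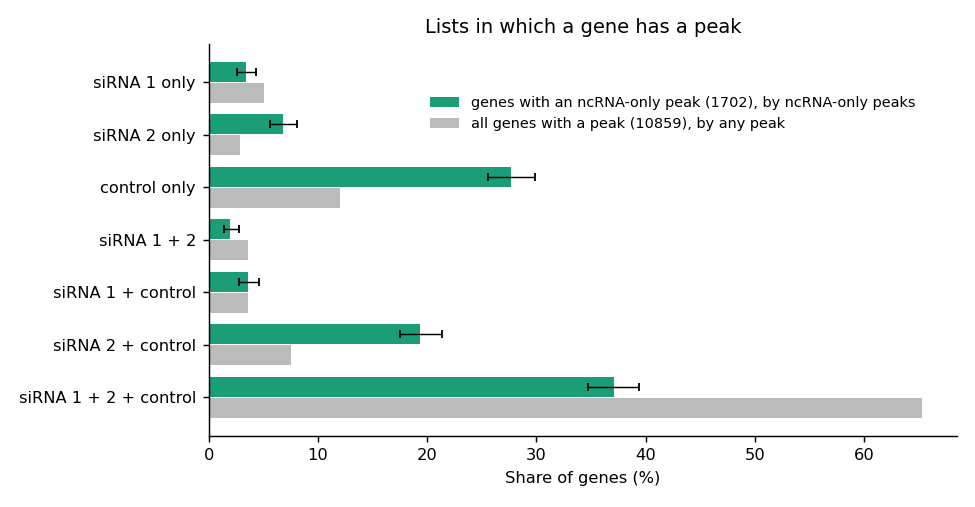
Share of genes, in percent, by the lists in which they have a peak, for the 1702 genes with an ncRNA-only peak counted by such peaks (green, exact 95% binomial intervals) and for all 10859 genes counted by any peak (grey). The green bar is longer than the grey one for control alone and for siRNA 2 with control, and shorter for all lists together.

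The 32 genes with a member in both DF2 siRNA lists and no control peak of any annotation were weak. Their median best percentile was 5.76 with DF2 siRNA 1 and 11.9 with DF2 siRNA 2. KRTAP5-AS1, antisense in a cluster of keratin-associated protein genes, ranked first, with scores of 15 and 18 (percentiles 28.0 and 17.9) and a fold enrichment of 12.6 and 15.1. AC009404.2, CTD-2184D3.5, CTD-2270L9.4, RP11-334C17.3, RP4-756H11.3 and LRRC37A15P followed, each at a place shared by both lists. MGC39584 was in both lists at places that share no base.

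The 460 genes with a control member and no peak in either DF2 siRNA list were also weak, with a median best percentile of 10.6. The highest, TUG1_1, at percentile 60.8, shares its bases with TUG1 peaks of both DF2 siRNA lists, so the sequence was not missing there. AC016717.1, at 42.5, likewise shares bases with a peak named RP11-314B1.2 with DF2 siRNA 2. The control peak of THUMPD3-AS1 at 49.97 shared no base with a peak of either list, while its other control peak, at 24.5, shares bases with a peak of DF2 siRNA 1. AC005562.1 at 41.7, LINC00400 and MRPS31P4 at 39.8 each, CTD-2256P15.2 at 39.6 and RP11-620J15.3 at 35.9 shared no base with a peak of either list. LINC00400 had a −log10 FDR of 6.998, and TUG1_1 one of 5.95.

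Members lay opposite to coding genes in about the same share of each list. By RefSeq spans of coding genes with a known strand, 23.1% of members with DF2 siRNA 1, 24.3% with DF2 siRNA 2 and 23.7% with control lay in a coding gene on the opposite strand only, against 2.69%, 3.75% and 4.32% of all peaks. On the same strand only lay 11.4%, 11.5% and 13.8%, against 71.8%, 69.3% and 67.3% of all peaks, and in neither 64.2%, 62.6% and 60.9%, against 20.9%, 22.0% and 23.3%. A strand was known for 79.0% of coding genes, so the shares in neither are upper bounds. The sense gene of an antisense-named gene itself had a peak in 103 of 140 cases with DF2 siRNA 1 (73.6%, interval 65.5 to 80.7). It had one in 121 of 182 with DF2 siRNA 2 (66.5%, 59.1 to 73.3) and 168 of 238 with control (70.6%, 64.4 to 76.3). Of all RefSeq coding genes, expressed in these cells or not, 36.8%, 36.0% and 39.0% had a peak. The part of expression in this difference was not tested.

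Some members lay opposite another peak of the same list. This held for 6.4% of members with DF2 siRNA 1, 6.07% with DF2 siRNA 2 and 6.92% with control, against 1.53%, 2.09% and 2.46% of the other peaks. For antisense names it was 9.48%, 6.50% and 9.34%. Neither labels nor headers say whether reads were counted by strand, and without strand the reads of a gene and of its antisense partner cannot be told apart. A base on the same strand was shared with another member by 50, 62 and 90 members, as where 2 gene IDs cover 1 place.

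Along the gene, 25.7% of the 253 members with DF2 siRNA 1 whose lncRNA has a RefSeq strand began within 200 bases of the gene start or before it, with 27% of 315 with DF2 siRNA 2 and 25.4% of 425 with control. The gene end was reached in the same way by 17.0%, 19.7% and 24.9%. Several genes carried many members. TTC28-AS1 had 6 with DF2 siRNA 1, 7 with DF2 siRNA 2 and 6 with control, LINC00963 6, 6 and 5, and TTN-AS1, antisense to the titin gene, 1, 3 and 6. The highest LINC00963 peak lay on chromosome 9 at percentiles 88.0, 83.1 and 86.7 and shared bases among the lists. The highest TTN-AS1 peak lay at 28.0, 42.7 and 54.9 and was likewise shared, while 3 of its 6 control peaks were in no other list.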

How the data were processed

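The lists hold m6A peaks of U2OS cells, 1 merged list per condition. Per the submitters' processing notes reads were placed with HISAT2 on hg38; not given in the sources used here: peak caller, annotation release, definition of the score and merging of r1 and r2. The score, the fold enrichment (a ratio of IP over input) and the −log10 FDR of a peak are the authors' deposited values per the file headers, and no FDR exceeded 0.05. Read counts were not used here, so the depth is unknown.

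Blocks were read from the deposited positions, raised by 1 at the start, and all block ends matched the peak ends. Score percentiles give tied peaks their mean rank within a list. Kinds were set by the symbol in a fixed order of 8 patterns. Symbols were matched to RefSeq (GRCh38.p14) by the current or a single older name on the same chromosome; 17 gene IDs had the symbol NA. Python 3.11.15, pandas 2.3.3, numpy 2.4.6, scipy 1.17.1 and matplotlib 3.10.9 were used. The overlap and naming code was tested on simulated data.

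The members, gene lists and named genes were chosen with earlier results of these data known. Named were MALAT1 and TUG1, the 8 highest members of each list and the 3 highest genes of each kind and list. Also named were the 8 highest genes of control without either siRNA list and of both siRNA lists without control, and up to 12 of each gene list. Genes outside this rule (the printed start sites, RN7SL1, EBLN3, genes with many peaks, RefSeq coding genes and list members without a peak) were named after their values were seen. Alternatives are given in the closing section.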

Additional observations from a re-analysis of the deposited data

How the results depend on the processing

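Of the main results recomputed under the alternatives, 76 values stayed within the counting interval (counts within 1.5 times) and 74 did not; the cause was not tested, and these follow in the order DF2 siRNA 1, DF2 siRNA 2 and control unless named. In the upper 50% of each list by score there were 145, 145 and 219 members (2.21%, 2.18% and 2.87%). The other list was cut in the same way, so a partner below the cut was not counted. This also holds for the settings by fold, by number of top peaks and by FDR. Found were then 75.9% of DF2 siRNA 1 members in DF2 siRNA 2 and 78.6% in control. Of DF2 siRNA 2 members 75.2% were found in DF2 siRNA 1 and 91.0% in control, and of control members 52.5% in DF2 siRNA 1. Clone names were then 40.7%, 39.3% and 40.2%, LINC names 11.0%, 13.8% and 10.5%, and antisense names 22.1% with DF2 siRNA 2 and 24.7% with control. In the upper 50% by fold enrichment there were 226, 378 and 644 members (3.44%, 5.68% and 8.43%). Of DF2 siRNA 2, 50.3% were then found in DF2 siRNA 1 and 91.5% in control, and of control 30.9% in DF2 siRNA 1 and 54.0% in DF2 siRNA 2. With the same number of top peaks by score from every list, members were 10.03% of control, 83.6% of DF2 siRNA 1 and 78.5% of DF2 siRNA 2 members were found in control, 58.2% of control members in DF2 siRNA 1 and 77.3% in DF2 siRNA 2, and 179 genes were in control alone. With FDR under 0.01, members were 6.88% of DF2 siRNA 1 with a median width of 600 bases, 53.6% of DF2 siRNA 2 members were found in DF2 siRNA 1 and 61.8% of control members in DF2 siRNA 2, and 38 genes were in DF2 siRNA 1 alone. With 50% of each peak in common, found were 67.8% of DF2 siRNA 1 in DF2 siRNA 2 and 62.1% in control, 47.9% of DF2 siRNA 2 in DF2 siRNA 1 and 69.2% in control, and 32.3% of control in DF2 siRNA 1 and 50.8% in DF2 siRNA 2. With any annotation that includes ncRNA the shares were 9.32%, 12.5% and 14.6%. Of all peaks with a RefSeq match, coding genes included, 467, 619 and 805 (3.77%, 5.04% and 5.80%) were members without a protein-coding class. The genomic span had medians of 600, 746 and 800 bases, and peaks of 1 block 520 with DF2 siRNA 2 and 511 with control. The median percentile was 20.9, 24.8 and 31.8 by fold, 35.8, 42.5 and 43.6 by −log10 FDR, and 24.5 in control for the strongest peak of each gene. By genes instead of peaks, antisense names were 18.3%, 16.9% and 16.3%, clone names 52.5%, 57.3% and 58.6%, and LINC names 5.42% in control. RefSeq classes replace the kinds rather than recompute them and are given with the results. No paired analysis was possible because each condition has 1 merged list and no test was run. Depth is unknown, and with 1 list per condition the spread between cultures cannot be given.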
